A study of Homo sapiens with 4 samples.

Results

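Cadherins and their catenin partners were measured in DLD-1 cells, a cell line established from a human colorectal adenocarcinoma, to ask how transcripts of cell-cell adhesion genes differ when HMGA2, an AT-hook chromatin protein, is supplied from a plasmid. The set comprised every gene of the array's annotation named as a numbered cadherin or protocadherin or as a clustered PCDHA, PCDHB or PCDHG gene, with CDHR1, CDHR2, CDHR5, CELSR1 to CELSR3, FAT1 to FAT4, CTNNA1, CTNNA2, CTNND1 and CTNND2. It held 100 genes of the 18336 named on the array, read by 130 probes that list 1 gene each. CTNND1, PCDHA13, PCDHGA5 and PCDHGB5 fit the rule but had no probe of their own. A first line carried tGFP-tagged pCMV6-HMGA2 and a second the pCMV6-AC-GFP plasmid alone. Both plasmids use a CMV promoter, and both lines were selected with 1 mg/mL G418 and grown untreated in 0.5 mg/mL G418. Each was hybridised to 2 single-colour arrays, 4 in all. The labels speak of stable clones without giving their number, and they do not say whether replicate arrays were made from separate cultures. The spread behind each p-value is that between these arrays and may be technical. In RNA from a whole culture, fewer cells that express a gene and less of its RNA per cell cannot be told apart.

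Classical cadherins are calcium-dependent adhesion proteins whose extracellular repeats bind cadherins on the next cell. Their cytoplasmic tails bind p120-catenin and beta-catenin (or plakoglobin), and alpha-catenin links that complex to actin. E-cadherin (CDH1) is the main classical cadherin of colonic epithelium. Protocadherins lack the catenin-binding tail, and the clustered alpha, beta and gamma genes, known best from neurons, are each expressed from their own promoter under control of the insulator protein CTCF and cohesin. Fat and Celsr proteins are giant cadherins known for growth control and planar cell polarity.

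The 2 probes of the supplied gene did not agree. The brighter HMGA2 probe read 3917 and 4369 on the arrays labelled HMGA2 against 5576 and 5270 on the arrays labelled vector, and the dimmer one 4596 and 3466 against 2728 and 3493. In the fit of every probe the brighter one was lower on the arrays labelled HMGA2 (log2 -0.39, SE 0.095, limma adjusted p = 0.0176). The dimmer one overlapped between groups and did not pass (0.37, SE 0.17, limma adjusted p = 0.133). After quantile normalization the brighter one no longer passed (-0.19), and the dimmer one passed as higher (0.59, limma adjusted p = 0.0438). The directions given here therefore rest on the labels. The median over all probes was 649 and 607 on the arrays labelled HMGA2, and 698 and 767 on those labelled vector. Over all 13752 tested genes the median log2 difference was -0.09 as deposited and 0.08 after quantile normalization, a shift of 0.18 against which small differences have to be read. Of 10 measured epithelial colon markers 9 were above the limit for dim genes, CEACAM5 being the exception, and 2 were higher and 4 lower; they summed to 446633 and 456335 on the arrays labelled HMGA2 and 415688 and 394131 on the arrays labelled vector. That sum is carried by EPCAM and KRT19, whereas the keratins KRT20 (log2 -2.74, SE 0.11) and KRT8 (-2.42, SE 0.10) were 6.68-fold and 5.37-fold lower on the arrays labelled HMGA2. The summed markers of mesenchymal cells reached 3675 to 4370 on the arrays labelled HMGA2 and 4540 to 5560 on the arrays labelled vector, with VIM, COL1A2, COL3A1 and DCN below the limit. COL1A1 carried that sum (log2 -0.43, SE 0.13), and its call was lost after quantile normalization. PDGFRB went the other way (0.68, SE 0.29) and passed as higher after quantile normalization only. Leukocyte markers summed to 1350 to 1840 and 1029 to 1090, carried by CD68, with PTPRC and CD3E below the limit. Those of endothelium summed to 1477 to 1498 and 1607 to 1683. Their part in the results was not tested.

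The RefSeq promoter table (GRCh38.p14) holds promoters of 8 genes of the set that passed an adjusted p of 0.05 in limma. Promoters are shown for 4 of these, chosen after their values were seen. Each is given in the direction of the gene, from 250 bases before its start to 50 after it. The clustered genes PCDHA9, PCDHGA10 and PCDHGC3 were lower on the arrays labelled HMGA2 and PCDH1 higher. Capitals mark CGCT or its complement AGCG, the core of the conserved promoter element of clustered protocadherins, in the clustered genes, and the E-box CACCTG or its complement CAGGTG in PCDH1.
PCDHA9, chr5:140848132-140848431, + strand: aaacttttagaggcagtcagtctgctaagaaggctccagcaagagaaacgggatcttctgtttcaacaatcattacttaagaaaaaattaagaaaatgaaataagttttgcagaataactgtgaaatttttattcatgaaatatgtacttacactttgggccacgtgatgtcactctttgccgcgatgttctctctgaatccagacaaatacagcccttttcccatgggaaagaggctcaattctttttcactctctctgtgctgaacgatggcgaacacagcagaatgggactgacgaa
PCDHGA10, chr5:141412737-141413036, + strand: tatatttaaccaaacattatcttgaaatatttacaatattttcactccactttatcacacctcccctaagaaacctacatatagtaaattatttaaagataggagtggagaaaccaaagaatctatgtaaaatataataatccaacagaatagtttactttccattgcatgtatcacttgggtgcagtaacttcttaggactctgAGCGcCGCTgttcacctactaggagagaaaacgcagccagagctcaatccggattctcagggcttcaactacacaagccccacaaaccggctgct
PCDHGC3, chr5:141475716-141476015, + strand: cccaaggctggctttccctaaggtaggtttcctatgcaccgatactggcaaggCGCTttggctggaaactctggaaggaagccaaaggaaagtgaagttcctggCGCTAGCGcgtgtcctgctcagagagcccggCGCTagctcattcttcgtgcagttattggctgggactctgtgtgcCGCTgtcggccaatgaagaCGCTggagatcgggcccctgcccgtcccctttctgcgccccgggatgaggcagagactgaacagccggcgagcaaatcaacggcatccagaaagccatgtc
PCDH1, chr5:141869578-141869877, - strand: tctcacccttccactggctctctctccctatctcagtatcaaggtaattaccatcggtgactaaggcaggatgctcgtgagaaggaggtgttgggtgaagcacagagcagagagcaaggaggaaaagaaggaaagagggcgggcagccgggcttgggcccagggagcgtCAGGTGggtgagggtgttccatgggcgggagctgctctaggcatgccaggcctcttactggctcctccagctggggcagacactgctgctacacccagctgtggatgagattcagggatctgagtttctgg
The stretches of PCDHA9 and PCDHGA10 were rich in A and T, at 60.3% and 61.7%, whereas PCDHGC3 had 41.0% and PCDH1 42.0%, beside a median of 41.3% over all 35116 promoters of the table. PCDHGC3 held 6 matches to CGCT, PCDHGA10 held 2, and PCDHA9 had no match in this window. CGCT on either strand was found in 70.0% of all promoters and in 88.2% of the 102 promoters that 76 members have in the table. Those 102 include promoters of members outside the clusters, and the share for clustered genes alone was not computed. The single E-box of PCDH1 began 81 bases before the start, and 20.6% of all promoters and 10.8% of the members' promoters held an E-box of these letters.

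Of the 100 genes, 45 were bright enough to be tested, and 12 of these passed an adjusted p of 0.05 in limma: 5 were higher and 7 lower on the arrays labelled HMGA2. That is 26.7% of the tested members, where 43.6% of all tested genes passed, 14.9% as higher and 28.7% as lower. The higher genes were PCDH1, PCDHB6, CDH3, CDH8 and CDH1, and the lower genes PCDHGA10, PCDHA9, CELSR3, CDH15, PCDHGC3, CTNNA1 and FAT1. The median log2 difference of the tested members was 0.04, beside -0.09 over all tested genes, and after quantile normalization it was 0.19 beside 0.08. Since a gene could pass the brightness limit through the group in which it was high, these counts describe the brighter members only. After quantile normalization 17 members passed, 11 higher and 6 lower (over all genes 50.6%, with 27.8% higher and 22.8% lower), so that 64.7% of their calls were rises against 41.7% as deposited. Over all genes the corresponding shares were 55.0% and 34.2%. In both versions 10 members were called in the same direction, none in opposite directions. The groups did not overlap in 24 of the 45 tested members (53.3%), where they did not overlap in 71.3% of all tested genes. In a fit of every probe above the limit, 5 of 51 member probes were higher and 10 lower (over all probes 45.1%, with 14.9% higher and 30.2% lower).

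**Figure D1:**
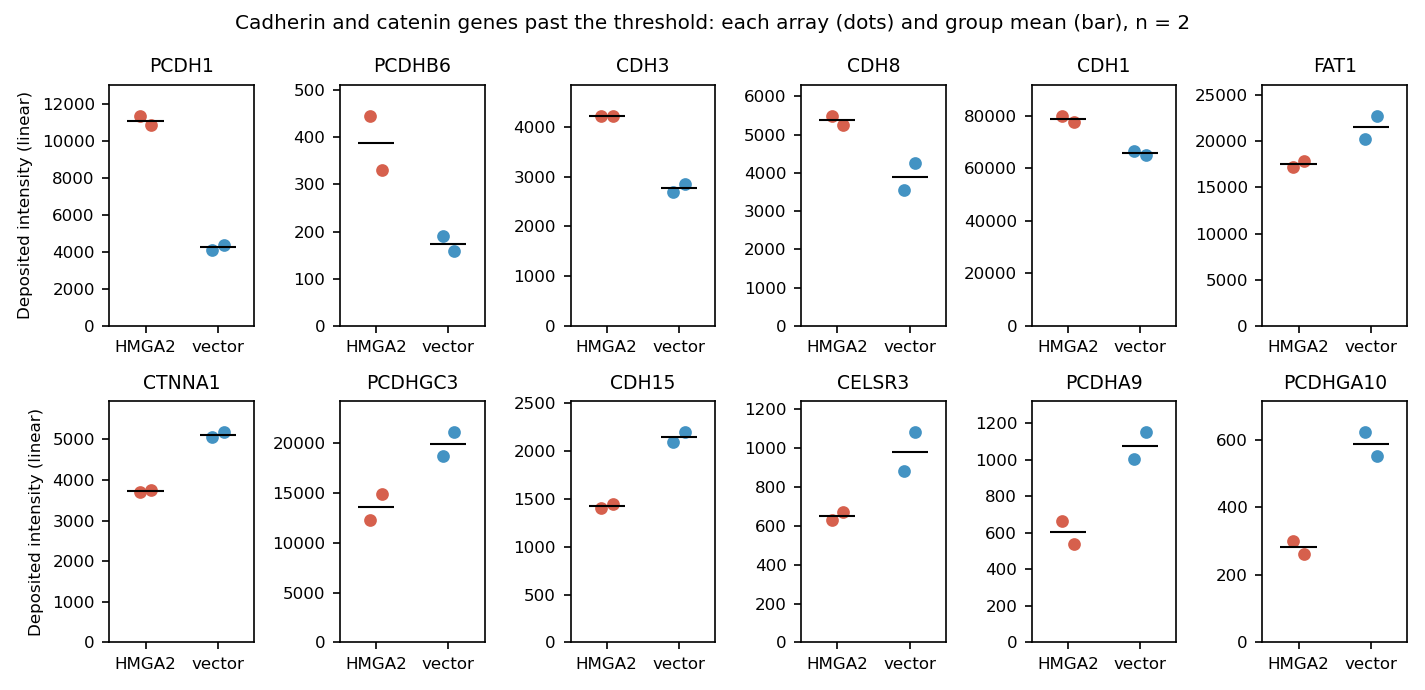
Deposited intensity (linear, axes from 0) of the 12 cadherin and catenin genes past the threshold, with arrays labelled HMGA2 on the left and vector on the right of each panel. Dots are arrays and bars the mean of 2 arrays; in each of the 12 panels the groups do not overlap, and the gap is widest relative to the level for PCDH1.

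Among the type I classical cadherins 4 of 5 were tested, and E-cadherin and P-cadherin were higher. CDH3, which encodes the P-cadherin of basal and proliferating epithelium, read 4214 and 4216 on the arrays labelled HMGA2 against 2693 and 2849 on the arrays labelled vector. The replicates lay close together and the groups were clearly apart, with a mean of 4215 ± 1.41 against 2771 ± 110 (SD, n = 2) and a 1.52-fold rise (log2 0.61, SE 0.09, limma adjusted p = 0.00256). The value was 0.83 after quantile normalization and the call held under all 15 alternatives.

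CDH1 read 79919 and 77469 on the arrays labelled HMGA2 against 66576 and 65228 on the arrays labelled vector. This was a smaller, 1.19-fold rise in the same direction (log2 0.26, SE 0.07, limma adjusted p = 0.0244). The direction held without any 1 array, but the adjusted p was 0.0668 without HMGA2 replicate 1, 0.0828 without vector replicate 1 and 0.13 without vector replicate 2. It was 0.0764 with a single prior variance in place of the intensity trend. CDH3 and CDH1 lie next to each other on chromosome 16, with 0 protein-coding genes between them in the RefSeq table.

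Of the remaining type I members CDH15 was lower, CDH2 did not pass and CDH4, the retinal cadherin, was too dim to be tested. CDH15, the M-cadherin known from skeletal muscle, read 1410 and 1451 on the arrays labelled HMGA2 against 2094 and 2196 on the arrays labelled vector. All values of the first group lay below those of the second (log2 -0.58, SE 0.10, limma adjusted p = 0.00444), and the difference was -0.34 after quantile normalization, still past the threshold. N-cadherin (CDH2), the mesenchymal and neural counterpart of E-cadherin, read 678 and 568 on the arrays labelled HMGA2 against 649 and 767 on the arrays labelled vector. These groups overlapped (log2 -0.19, SE 0.17, limma adjusted p = 0.423), and the sign turned to 0.04 after quantile normalization.

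Among the type II cadherins, whose binding domain differs from that of type I, 6 of 13 were tested and CDH8 was higher. CDH8, known from the nervous system, read 5487 and 5258 on the arrays labelled HMGA2 against 3540 and 4259 on the arrays labelled vector, without overlap (log2 0.47, SE 0.11, limma adjusted p = 0.0177). The call rested on the brighter of its 2 probes, the other reading 119 and 49 against 35 and 84. It was lost for the mean of the probes (adjusted p = 0.264) and without vector replicate 1 (0.34, adjusted p = 0.0822). CDH5, CDH9, CDH19, CDH20 and CDH24 differed by -0.28 to 0.15 log2 and did not pass.

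Liver-intestine cadherin, CDH17, a cadherin with a short tail that marks intestinal epithelium, gave different answers by probe. Its brighter probe read 4524 and 5509 on the arrays labelled HMGA2 against 6579 and 5288 on the arrays labelled vector, with overlap (log2 -0.24, SE 0.15, limma adjusted p = 0.231), and differed by -0.06 after quantile normalization (adjusted p = 0.733). The other probe read 4254 and 4494 against 6364 and 6210, with both arrays labelled HMGA2 below both labelled vector. In the fit of every probe that second probe fell by 0.52 (SE 0.08, limma adjusted p = 0.00354, 45.1% of all probes called), and by 0.34 after quantile normalization (adjusted p = 0.0148). The 2 probes were close in level, at mean log2 12.29 and 12.09 on the arrays labelled HMGA2 and 12.53 and 12.62 on those labelled vector. The gene passed for the mean of its probes (-0.38, limma adjusted p = 0.0211). On the brighter probe it also passed with a block that crossed the replicate numbers, added after the data were seen (-0.24, limma adjusted p = 0.0419). Without vector replicate 2 the brighter probe differed by -0.40. The GPI-anchored CDH13 and the stereocilium cadherin CDH23 differed by 0.04 and 0.07 log2 on their brightest probes. Another CDH23 probe read 773 and 746 on the arrays labelled HMGA2 against 503 and 620 on the arrays labelled vector. It did not pass in the fit of every probe (log2 0.44, SE 0.16, limma adjusted p = 0.0625). After quantile normalization that probe passed as higher (0.66, limma adjusted p = 0.00478). CDHR2 and CDHR5, which link microvilli of the brush border, and CDHR1, CDH16 and CDH26 were too dim to be tested.

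**Figure D2:**
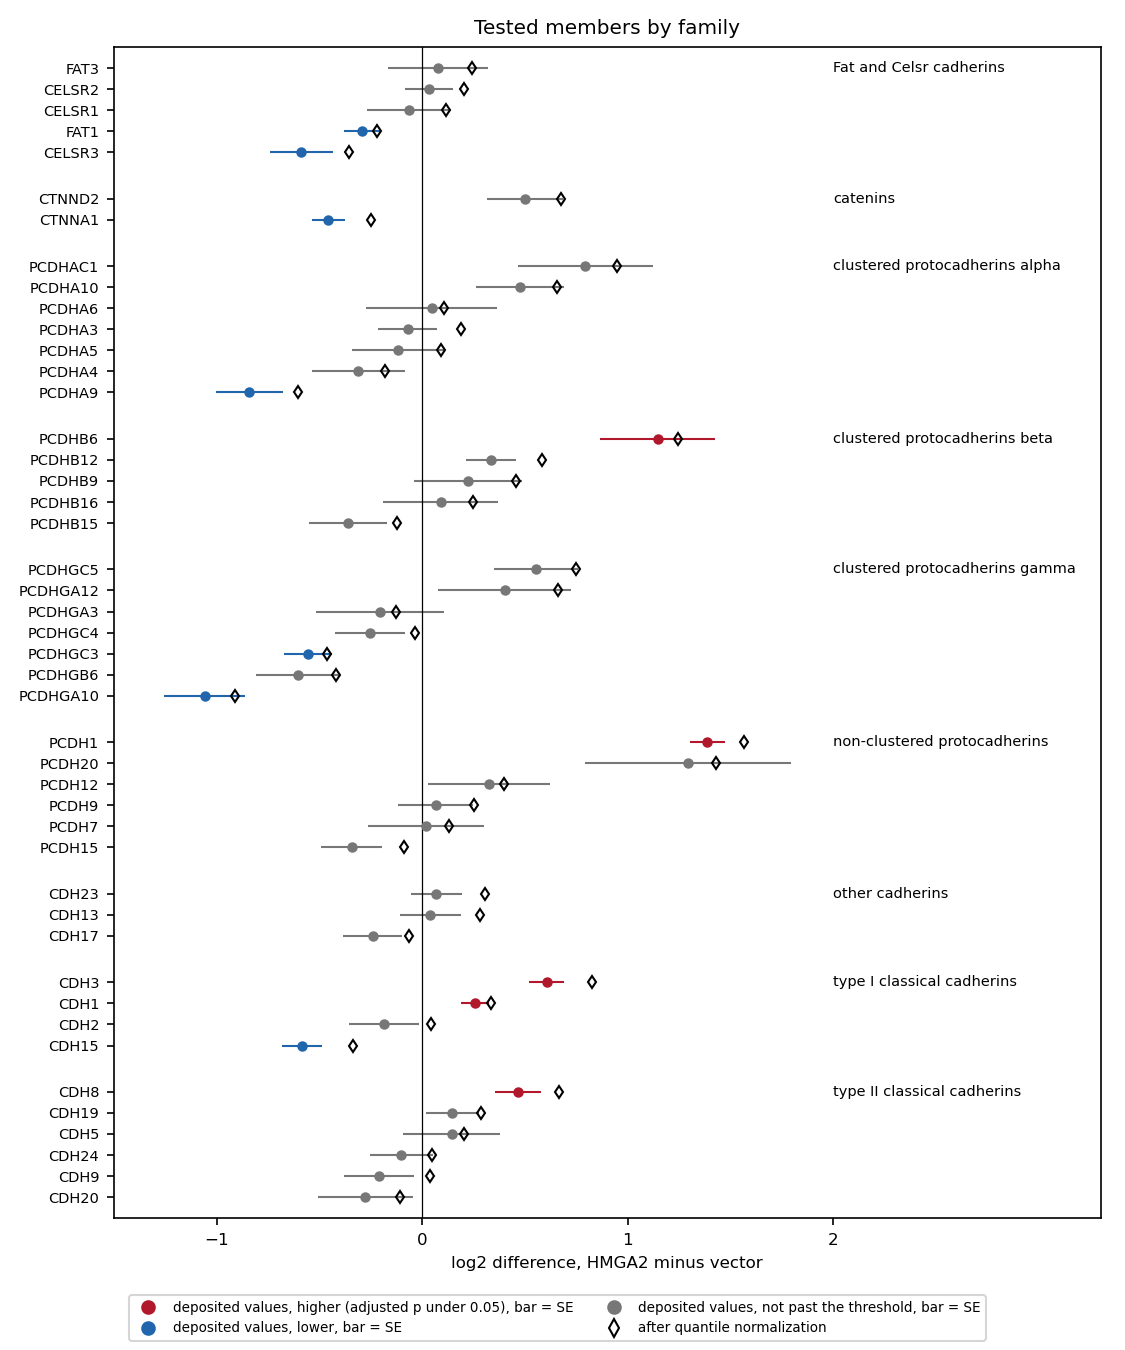
Log2 difference, HMGA2 minus vector, of the 45 tested genes grouped by family. Filled circles with SE bars are deposited values, coloured by call, and open diamonds are values after quantile normalization; each diamond lies to the right of its circle, and PCDH1 at 1.39 and PCDHGA10 at -1.06 are the extremes among those called.

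Alpha-catenin was lower while the classical cadherins of epithelium were higher. CTNNA1, the alphaE-catenin that ties the complex to actin, read 3706 and 3749 on the arrays labelled HMGA2 against 5065 and 5168 on the arrays labelled vector. Both groups were tight and did not overlap (log2 -0.46, SE 0.08, limma adjusted p = 0.00582). The difference was -0.25 after quantile normalization (adjusted p = 0.0469) and -0.24 with array medians subtracted, where it no longer passed (adjusted p = 0.183). CTNND2, the neural delta-catenin of the p120 family, read 522 and 489 against 336 and 379 (log2 0.50, SE 0.18, limma adjusted p = 0.0728), and it passed only after quantile normalization (0.68, adjusted p = 0.00529). The neural alphaN-catenin gene CTNNA2 was too dim to be tested.

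In the list of other adherens junction proteins, 13 of 22 tested genes passed, 4 higher and 9 lower, and 5 and 8 after quantile normalization. That is 59.1% called with a median log2 difference of -0.25, beside 43.6% and -0.09 over all tested genes; after quantile normalization the medians were -0.08 and 0.08. PTPRK, a receptor tyrosine phosphatase that acts on the catenins, fell by 1.03 log2 (SE 0.08), PLEKHA7, which binds p120-catenin, by 1.01 (SE 0.14), and the actin-binding LIMA1 by 0.89 (SE 0.10). CTNNB1, beta-catenin itself, fell by 0.76 (SE 0.07), reading 92182 and 94750 on the arrays labelled HMGA2 against 158873 and 158076 on the arrays labelled vector. The 4 that rose, named after their values were seen, were the microtubule minus-end protein CAMSAP3 (0.62), plakoglobin JUP (0.57), the minus-end motor KIFC3 (0.40) and the p120 relative PKP4 (0.32). CAMSAP3 and KIFC3 are known to act together with PLEKHA7 at junctions, and their values went opposite ways from it.

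Of the transcription factors that act on cadherin genes 4 of 13 tested passed, 1 higher and 3 lower. That is 30.8% beside 43.6% of all tested genes, and the median log2 difference was -0.21, turning to 0.02 after quantile normalization. The epithelial factor ELF3 rose by 0.79 log2 (SE 0.15). TCF4, an E-box binding repressor of CDH1, fell by 0.68 (SE 0.09), the intestinal factor CDX2, which activates CDH17, by 0.62 (SE 0.12), and OVOL1 by 0.40 (SE 0.08), a call that OVOL1 lost after quantile normalization. The CDH1 repressor SNAI1 read 2828 and 2365 on the arrays labelled HMGA2 against 3051 and 2944 on the arrays labelled vector and did not pass (-0.21, SE 0.11, turning to 0.02 after quantile normalization). SNAI2 and ZEB1 were too dim to be tested, and ZEB2 and TWIST1 passed in neither version. TWIST2 read 14655 and 15291 against 12537 and 13390 and passed as higher after quantile normalization only (0.31, adjusted p = 0.0227).

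Of proteases and trafficking proteins that cut or move cadherins, 2 of 8 tested rose and 2 fell, a share near the 43.6% of all tested genes that passed, with a median log2 difference of 0.05 (0.15 after quantile normalization). ARF6, a GTPase that drives E-cadherin endocytosis, fell by 1.93 log2 (SE 0.09) on the brighter of its 2 probes. That probe read 5054 and 5287 on the arrays labelled HMGA2 against 20760 and 18662 on the arrays labelled vector. The recycling GTPase RAB11A fell by 0.47 (SE 0.13), while the gamma-secretase genes PSEN2 (0.41) and NCSTN (0.37) rose. ADAM10, the main sheddase of E-cadherin, passed in neither version.

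The clearest change among all members was in PCDH1, a delta-type protocadherin of epithelia. Its brighter probe read 11331 and 10829 on the arrays labelled HMGA2 against 4108 and 4359 on the arrays labelled vector. The groups stood far apart, with means of 11080 ± 355 and 4234 ± 178 (SD, n = 2) and a 2.62-fold rise (log2 1.39, SE 0.08, limma adjusted p = 0.000165). A second, dimmer probe of PCDH1 read 752 and 823 against 1071 and 975, the opposite direction (log2 -0.38, SE 0.13, limma adjusted p = 0.0495 in the fit of every probe), and it did not pass after quantile normalization. With the probes averaged the difference was 0.50 and still past the threshold. The sources used here do not give which transcripts of PCDH1 each probe reads.

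Among the remaining non-clustered protocadherins, PCDH20 had the next largest difference but rested on 1 array. It read 530 and 1575 on the arrays labelled HMGA2 against 309 and 450 on the arrays labelled vector, so HMGA2 replicate 2 stood apart from its replicate (log2 1.29, SE 0.50, limma adjusted p = 0.0822). PCDH7, PCDH9, PCDH12 and PCDH15 differed by -0.34 to 0.33 log2. Of these PCDH12 alone passed after quantile normalization (0.40, limma adjusted p = 0.0422). It read 309 and 235 on the arrays labelled HMGA2 against 188 and 246 on the arrays labelled vector. These groups overlapped, and the vector mean lay below the brightness limit.

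Clustered protocadherins were mostly dim, with 33 of 52 below the limit. By cluster 7 alpha, 5 beta and 7 gamma genes were tested, with median log2 differences of -0.07, 0.22 and -0.255 (0.11, 0.46 and -0.13 after quantile normalization). Of these 19, 1 was higher and 3 were lower, 21.1% called beside 43.6% of all tested genes. After quantile normalization 5 were higher and 4 lower, where 50.6% of all tested genes passed. Genes of a cluster are close relatives, and the alpha and gamma genes share their last exons, so a probe may read more than its named gene. The 11 probes that list several genes, at least 1 of them in the set, were not used.

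PCDHGA10 read 301 and 263 on the arrays labelled HMGA2 against 622 and 552 on the arrays labelled vector. All values of the first group lay well below those of the second, a 2.08-fold fall (log2 -1.06, SE 0.20, limma adjusted p = 0.00678) that was -0.91 after quantile normalization. Its direct neighbour PCDHGB6 read 411 and 321 against 523 and 583 (log2 -0.60, SE 0.20, limma adjusted p = 0.0557), and passed after quantile normalization (-0.42, adjusted p = 0.033). PCDHGC3, one of the C-type genes at the end of the gamma cluster, read 12292 and 14898 against 18762 and 21082. It fell by 0.56 log2 (SE 0.12, limma adjusted p = 0.0112), by 0.46 after quantile normalization, and missed the threshold with array medians subtracted (-0.33, adjusted p = 0.117). Of the other C-type genes, PCDHGC4 read 620 and 590 against 641 and 813, lower without overlap but not past the threshold (-0.255, SE 0.17). PCDHGC5 differed by 0.55 and passed as higher after quantile normalization only (0.75, adjusted p = 0.0264). The differences between these genes were not tested.

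In the alpha cluster PCDHA9 read 667 and 539 on the arrays labelled HMGA2 against 1002 and 1149 on the arrays labelled vector, without overlap (log2 -0.84, SE 0.16, limma adjusted p = 0.00802). The fall was 0.60 after quantile normalization. The next gene along the chromosome, PCDHA10, went the other way, with 562 and 462 against 327 and 410 (log2 0.48, SE 0.21, limma adjusted p = 0.123), and passed after quantile normalization only (0.66, adjusted p = 0.00802). PCDHAC1 read 667 and 606 against 261 and 516, its vector arrays differing widely from each other, and likewise passed after quantile normalization only (0.95, adjusted p = 0.0215).

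In the beta cluster PCDHB6 read 445 and 330 on the arrays labelled HMGA2 against 190 and 158 on the arrays labelled vector. The rise was 2.21-fold (log2 1.15, SE 0.28, limma adjusted p = 0.0192), and since the vector mean lay below the brightness limit (234 on the linear scale), its size is uncertain. The call was lost without HMGA2 replicate 1 (0.93, adjusted p = 0.127) and with the replicate number as a block (adjusted p = 0.0952). PCDHB12, at 1700 and 1499 against 1204 and 1331, passed after quantile normalization only (0.58, adjusted p = 0.0078). PCDHB9, PCDHB15 and PCDHB16 passed in neither version.

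**Figure D3:**
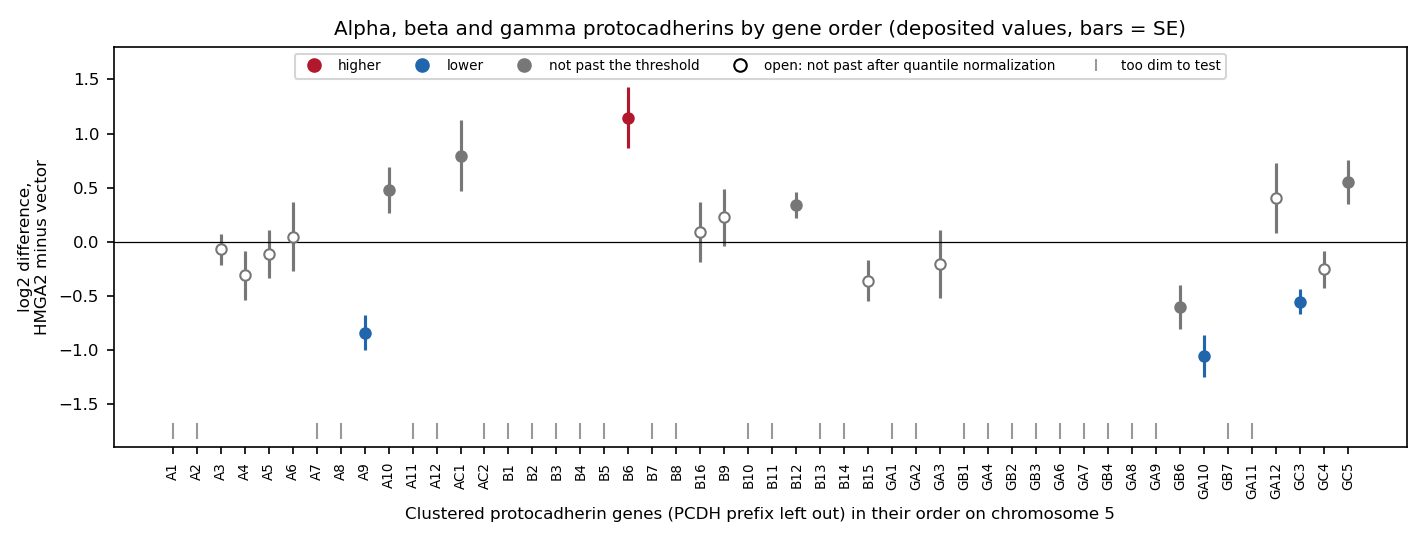
Log2 difference, HMGA2 minus vector, of the protein-coding clustered protocadherins in their order along chromosome 5, with SE bars; grey ticks are genes too dim to test. PCDHA9, PCDHGA10 and PCDHGC3 are lower, PCDHB6 is higher, and neighbours such as PCDHA9 and PCDHA10 can lie on opposite sides of 0.

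Genes for the chromatin control of these clusters were measured as well, and 7 of 12 passed, 4 higher and 3 lower. That is 58.3% beside 43.6% of all tested genes (14.9% higher and 28.7% lower), and the median log2 difference was -0.09, turning to 0.10 after quantile normalization. CTCF read 5189 and 4806 on the arrays labelled HMGA2 against 16094 and 12119 on the arrays labelled vector, a fall by 1.48 log2 (SE 0.14). The cohesin subunit STAG2 fell by 1.25 (SE 0.08) and SMC3 by 0.61 (SE 0.11). The STAG2 relative STAG1, the subunits RAD21 and SMC1A and the loader NIPBL passed in neither version. WIZ rose by 0.41 (SE 0.10), and the others that rose were the cohesin release factor WAPL (0.39), the DNA methyltransferase DNMT3B (0.34) and the histone methyltransferase SETDB1 (0.30). The 7 calls also passed after quantile normalization. Whether these differences bear on the clustered genes was not tested.

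**Figure D4:**
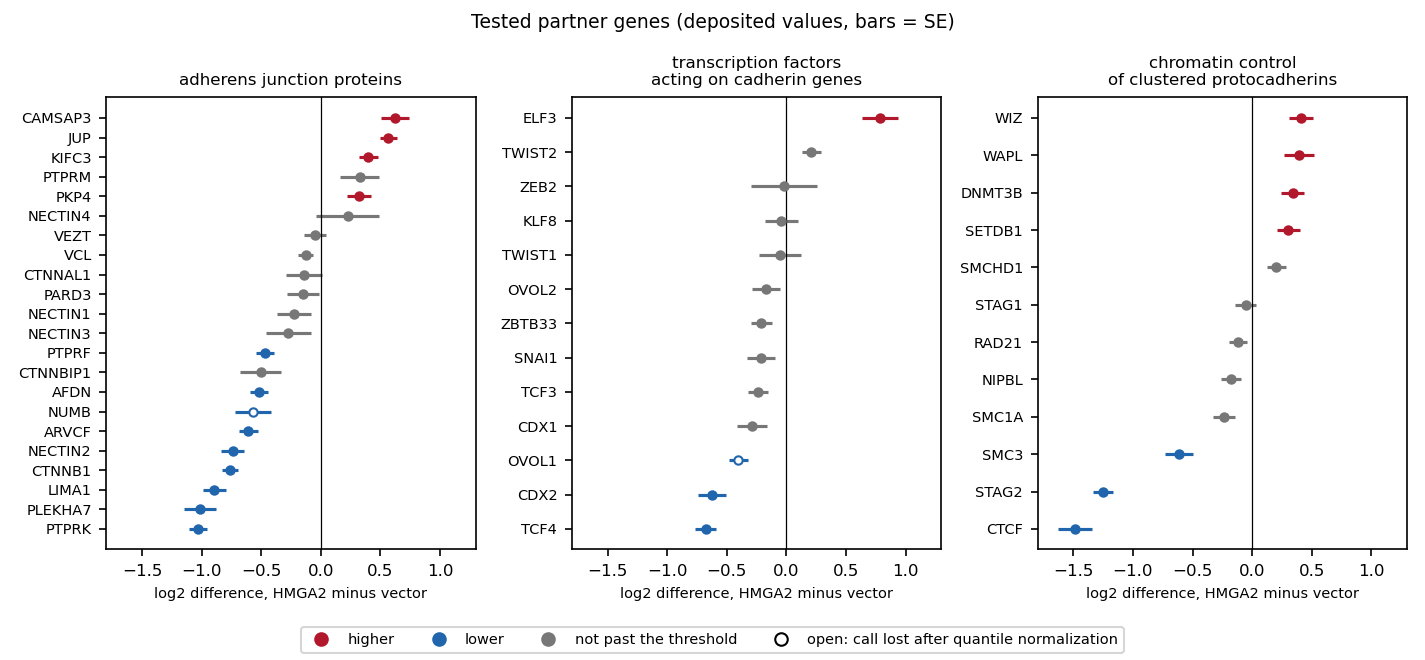
Log2 difference, HMGA2 minus vector, with SE bars, of tested partner genes in 3 lists: adherens junction proteins, transcription factors acting on cadherin genes, and chromatin control of clustered protocadherins. Colours give the call on deposited values, and open circles mark NUMB and OVOL1, whose calls were lost after quantile normalization; CTCF at -1.48 and STAG2 at -1.25 lie farthest to the left.

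Among the giant cadherins, FAT1 and CELSR3 were lower as deposited only. FAT1, a large cadherin of epithelial cell edges, read 17182 and 17900 on the arrays labelled HMGA2 against 20258 and 22727 on the arrays labelled vector (log2 -0.29, SE 0.09, limma adjusted p = 0.038). CELSR3, a planar polarity cadherin known from axon guidance, read 631 and 670 against 883 and 1081 (log2 -0.59, SE 0.15, limma adjusted p = 0.0232). The groups did not overlap in either gene, but both calls were lost after quantile normalization, at -0.22 (adjusted p = 0.0968) and -0.36 (adjusted p = 0.0646). With array medians subtracted FAT1 differed by only -0.07 (limma adjusted p = 0.739) and CELSR3 by -0.37 (limma adjusted p = 0.053). FAT1 also missed the threshold without the intensity trend (limma adjusted p = 0.0857). Without vector replicate 2 the adjusted p was 0.296 for FAT1 and 0.104 for CELSR3, and without HMGA2 replicate 1 it was 0.088 for FAT1 and 0.073 for CELSR3. CELSR1, CELSR2 and FAT3 differed by -0.06 to 0.08.

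In the planar polarity and Fat pathway list, 4 of 10 tested genes passed, 2 in each direction. That is 40.0%, near the 43.6% of all tested genes, and the median log2 difference was -0.25, or -0.04 after quantile normalization. The receptor FZD3, which works with Celsr proteins, fell by 1.44 log2 (SE 0.13), reading 945 and 891 on the arrays labelled HMGA2 against 2281 and 2726 on the arrays labelled vector. The polarity scaffold SCRIB fell by 0.60 (SE 0.07), while PRICKLE2 (0.70, SE 0.17) and FJX1, the relative of the fly kinase that modifies Fat and Dachsous, rose (0.61, SE 0.10). Of the brush border partners 3 of 8 were tested, and the microvillus protein VIL1 was the one that passed, at 1.23 (SE 0.10), 33.3% beside 43.6% of all tested genes.

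The 55 members too dim to test were mostly highest on 1 array. Their median intensity was 124 on HMGA2 replicate 1 and 58 on HMGA2 replicate 2, against 51 on vector replicate 1 and 86 on vector replicate 2. The highest value of a gene was on HMGA2 replicate 1 in 51 of the 55 (92.7%), as it was in 80.3% of all 4584 genes left out as dim. The lowest was on vector replicate 1 in 38 (69.1%, against 67.9% of all genes left out as dim). On HMGA2 replicate 1 no probe read below 62, while 639 probes were at or below 0 on vector replicate 1. In a fit without the brightness filter 0 of the 55 passed in limma, 2 having an unadjusted p under 0.05. That fit called 2260 of all 18336 genes higher and 4136 lower. The share called among all 4584 dim genes was not computed, so the 0 cannot be read as particular to the members.

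**Figure D5:**
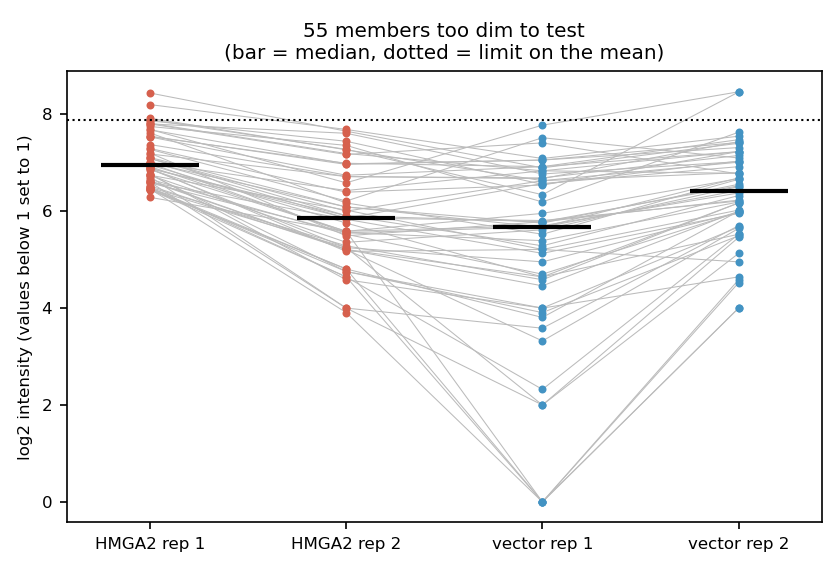
Log2 intensity of the 55 cadherin and catenin genes below the brightness limit on each array, with arrays labelled HMGA2 left of those labelled vector; grey lines join a gene, bars are medians and the dotted line is the limit on the mean over 4 arrays. HMGA2 replicate 1 is the highest array for 51 of the 55 genes.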

How the data were processed

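Antisense RNA amplified from total RNA carried Cy5 on single-colour arrays (per the labels). The deposited values are 1 intensity on a linear scale for each of 31741 probes on each array, and the scanner, background correction and normalization the authors used are not given in the sources used here; deposited values at or below 0 remain. Probes were named from the platform annotation (24740 list 1 gene, 977 several and 6024 none), and 1948 older symbols were updated through RefSeq (GRCh38.p14). The log2 of the deposited values, with a floor of 1, was used without further normalization. The brightest probe stood for its gene, and 4584 genes with a mean level under the 25th percentile were not tested. Partner genes were read from that probe alone, although several, ARF6, PLEKHA7, TCF4 and ELF3 among them, had further probes. The other 13752 genes were fitted together in limma 3.58.1 under R 4.3.3 (lmFit and eBayes with an intensity trend), with p-values adjusted by Benjamini-Hochberg over all of them and called under 0.05. An additional fit used every probe above the same limit as its own unit. The number of arrays limits the precision. Groups came from the sample titles.

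The members and lists were chosen with earlier results of these data known. Named were CDH1, CDH2, CDH3, CDH17 and CTNNA1, members past the threshold without overlap of the groups, members whose probes disagreed, and up to 4 called genes of each partner list with the largest difference; other members named were chosen after their values were seen. CTNND1 was in the rule too but had no probe of its own. Alternatives were quantile normalization, subtraction of array medians, normexp with an offset of 50 and quantile normalization, a linear offset of 50, the brightness filter removed or raised to the 50th percentile, probes averaged, every probe, no variance trend, the replicate number as a block and each array left out in turn. A crossed block was added after the data were seen.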

Additional observations from a re-analysis of the deposited data

How the results depend on the processing

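Of the 12 called members, 5 (PCDH1, CDH3, CDH15, PCDHA9 and PCDHGA10) kept direction and call under every alternative that measured them, the 50th percentile filter having left out PCDHA9 and PCDHGA10. None of the 12 reversed. In the fit of every probe each gene was followed by its brightest probe alone, so it was no check of the other probes. The dimmer PCDH1 probe went the other way in that fit (log2 -0.38, SE 0.13). The number of members called higher was 5 as deposited. It was 11 after quantile normalization, with array medians subtracted, or with normexp and quantile normalization. The number called lower was 7 as deposited and 3 with array medians subtracted. With the filter at the 50th percentile it was 4, since PCDHA9, PCDHGA10 and CELSR3 were then not tested. The 4 still tested, CDH15, PCDHGC3, CTNNA1 and FAT1, kept their calls. Over all genes that filter gave 1785 higher and 3078 lower. Over all genes, 2051 were higher as deposited against 3829 after quantile normalization, 3715 with array medians subtracted and 3835 with normexp, and 3943 were lower against 2479 with medians subtracted. CDH2, not called, turned to 0.041 after quantile normalization, 0.036 with array medians subtracted and 0.038 with normexp. With the replicate block 5 members were higher and 6 lower, beside 1819 and 3510 of all 13752 tested genes. Same-numbered arrays deviated in opposite directions (r = -0.20 across tested genes, which are not independent replicates). That correlation used deposited values without scaling between arrays, so it cannot decide whether same-numbered arrays belong together. In the main fit the numbers were not taken as pairs. A crossed block gave 10 members higher and 11 lower, beside 2590 and 4619 of all tested genes. Among called members the replicate block ended the calls of PCDHB6 and CELSR3. Low signal over background limits the dim members, of which none was called in limma without the filter (2 with an unadjusted p under 0.05). Over all 18336 genes that fit called 2260 higher and 4136 lower.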
